A study of Homo sapiens with 18 samples.

Results

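The genes described here are 37 genes of the epithelial-mesenchymal transition (EMT), chosen by gene symbol: mesenchymal markers, genes of the partial form of the transition, and their epithelial counterparts, without proteases, laminins and integrins. All 37 were found among the 41120 symbols of the deposited count table, and 23 of them had enough counts to be tested. They were followed through 18 libraries of FaDu and SCC154 cells (FADU-hfm and SCC154-hfm in the sample titles), which derive from human head and neck squamous cell carcinomas. FaDu is HPV-negative and SCC154 is HPV-positive, so line and HPV status cannot be told apart. Cells of both lines, in all 4 groups, carried the hypoxia fate-mapping (hfm) reporter, in which a promoter answering to low oxygen switches a cell from DsRed to GFP for good. They had been grown as spheroids in plates of very low attachment, dissociated with trypsin, sorted by fluorescence and then returned to culture under normoxia before RNA was extracted. The DsRed-positive cells are the non-hypoxic fraction, with 4 FaDu libraries (replicates 1 to 4) and 5 SCC154 libraries (replicates 1 to 5). The GFP-positive cells are the post-hypoxic fraction, with 5 FaDu libraries (replicates 1 to 5) and 4 SCC154 libraries (replicates 2 to 5). The sorted fractions were therefore compared after reoxygenation, not during low oxygen, and the time in culture after the sort is not given in the sources used here. Whether a line was grown from 1 clone, and whether replicates were separate cultures, is not given either, so every p-value here speaks of variation among the libraries in hand, part or all of which may be technical.

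In the transition, epithelial cells lower E-cadherin and the splicing and transcription factors that keep the epithelial programme, and raise mesenchymal cadherins, intermediate filaments and matrix proteins. Transcription factors of the SNAI, TWIST and ZEB families repress epithelial genes, several of them by binding E-box motifs in promoters, while factors such as OVOL1 and ELF3 act on the epithelial side. Many carcinomas, head and neck squamous carcinoma among them, take up only some of the mesenchymal genes while they keep keratins and E-cadherin, a state called partial EMT. Low oxygen is known as one of the signals that can induce the transition.

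Library totals ran from 1654719 to 2503573 counts. Levels are given as counts per 1000000 library counts (CPM) after scaling for composition, and 1 CPM stood for 1.69 to 2.45 counts, so that members at a few CPM rest on a handful of counts per library. Of the squamous epithelial markers, all 10 had counts in each group, with a summed level of 3328 to 4097 CPM over the 18 libraries. Most of it came from KRT19, SFN, PERP and KRT18. In either fraction 7 of the 10 were called lower and 2, KRT6A and KRT19, higher in SCC154, where 68.9% and 69.7% of all genes were called. KRT5 had group means of 195 and 237 CPM in FaDu and 23.2 and 27.9 CPM in SCC154. For KRT14 they were 23.4 and 34.1 CPM in FaDu and 3.26 and 5.20 CPM in SCC154. The 10 fibroblast markers summed to 60.7 to 105 CPM in FaDu and 154 to 228 CPM in SCC154 libraries, nearly all of it from 1 gene, FBLN1. DPT and COL3A1 had no count in any library. The 7 endothelial and 8 immune markers summed to at most 5.15 and 4.97 CPM in any library. Libraries are bulk RNA, in which fewer cells expressing a gene and less RNA per cell cannot be told apart.

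As a view of the regulatory sequence of genes on both sides of the difference between the lines, 4 promoters are shown, from RefSeq on GRCh38.p14, each from 250 bases before to 50 bases after a listed start. FN1 and TWIST2 are the members with the largest called differences in either direction, by the naming rule. Among tested members with an entry in the promoter table, ELF3 and S100A4 are those whose promoter held the E-box CACCTG. On the opposite strand it is written as CAGGTG, and it is the core motif of the SNAI and ZEB factors. CDH1, CDH3, EPCAM, ESRP1, OVOL1 and SNAI2 are among the tested members without an entry, so their promoters were not searched. Capitals mark that motif, and each sequence is written 5′ to 3′ along the gene's strand. The FN1 window is chr2:215436019-215436318 on the minus strand, ELF3 is chr1:202010337-202010636 on the plus strand, TWIST2 is chr2:238847835-238848134 on the plus strand and S100A4 is chr1:153545757-153546056 on the minus strand.
FN1: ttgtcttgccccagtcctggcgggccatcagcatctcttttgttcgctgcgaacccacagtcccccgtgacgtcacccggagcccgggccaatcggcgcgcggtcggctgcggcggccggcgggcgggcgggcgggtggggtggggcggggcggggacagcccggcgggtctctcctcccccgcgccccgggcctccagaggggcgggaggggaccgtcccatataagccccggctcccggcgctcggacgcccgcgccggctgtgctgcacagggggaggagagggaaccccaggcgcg
ELF3: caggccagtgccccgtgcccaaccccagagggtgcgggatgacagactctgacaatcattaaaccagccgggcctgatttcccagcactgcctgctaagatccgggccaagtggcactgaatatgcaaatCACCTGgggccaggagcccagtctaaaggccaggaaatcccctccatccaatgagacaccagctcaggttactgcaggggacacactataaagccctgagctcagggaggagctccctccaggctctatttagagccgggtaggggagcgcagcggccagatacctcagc
TWIST2: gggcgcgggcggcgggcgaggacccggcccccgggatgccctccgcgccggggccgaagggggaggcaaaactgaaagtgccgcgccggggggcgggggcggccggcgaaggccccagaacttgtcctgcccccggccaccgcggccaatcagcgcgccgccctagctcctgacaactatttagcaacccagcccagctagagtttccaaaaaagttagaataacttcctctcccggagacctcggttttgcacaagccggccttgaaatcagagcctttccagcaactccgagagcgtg
S100A4: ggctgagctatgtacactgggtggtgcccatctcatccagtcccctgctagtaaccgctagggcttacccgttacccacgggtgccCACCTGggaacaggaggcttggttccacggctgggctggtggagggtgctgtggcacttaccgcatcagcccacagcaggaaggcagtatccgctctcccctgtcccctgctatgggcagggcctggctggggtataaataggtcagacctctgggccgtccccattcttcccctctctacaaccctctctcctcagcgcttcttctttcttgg
The E-box starts 120 bases before the start in ELF3 and 164 bases before it in S100A4, and its letters are not in the FN1 and TWIST2 windows. Of 19 members with an entry in the promoter table, 3 held the motif in at least 1 listed window, the third being ZEB1. By window, 4 of the members' 33 windows of 300 bases held it (12.1%), and 20.6% of all 35116. A match of these letters is a description of the sequence and not a binding site.

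The members differed widely between the lines, and none passed the test between the sorted fractions of either line. Between non-hypoxic SCC154 and FaDu cells, 21 of the 23 tested members differed (edgeR quasi-likelihood test with Benjamini-Hochberg adjustment over all genes, adjusted p under 0.05), 9 of them higher in SCC154 and 12 lower. Of all 12291 genes tested, 68.9% were called in that comparison, 34.5% higher and 34.5% lower. Between the post-hypoxic fractions, 19 of the 23 differed, 8 higher in SCC154 and 11 lower, against 69.7% of all genes, 34.8% higher and 34.9% lower. With most genes called, the member counts are to be read against these shares. The differences were larger at the median over the members than over all genes: the median absolute log2 difference between the lines was 1.80 over the members and 0.722 over all genes in the non-hypoxic fractions, and 1.73 and 0.737 in the post-hypoxic fractions. For 15 of the 23 members (65.2%) every library of one line lay above every library of the other, as it did for 5329 of all 12291 genes (43.4%). Some members, such as TWIST1, CDH2 and EMP3, passed the filter on low counts through FaDu alone, where such a separation is close to built in. The members were also chosen with earlier results of these data known, so these larger values are a description and were not tested. Between post-hypoxic and non-hypoxic cells, 0 of 23 members were called in either line, against 0.757% of all genes in SCC154 and 0% in FaDu. Not all 23 could be called in SCC154, where 15 members passed the filter on low counts when its libraries were taken alone.

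**Figure D1:**
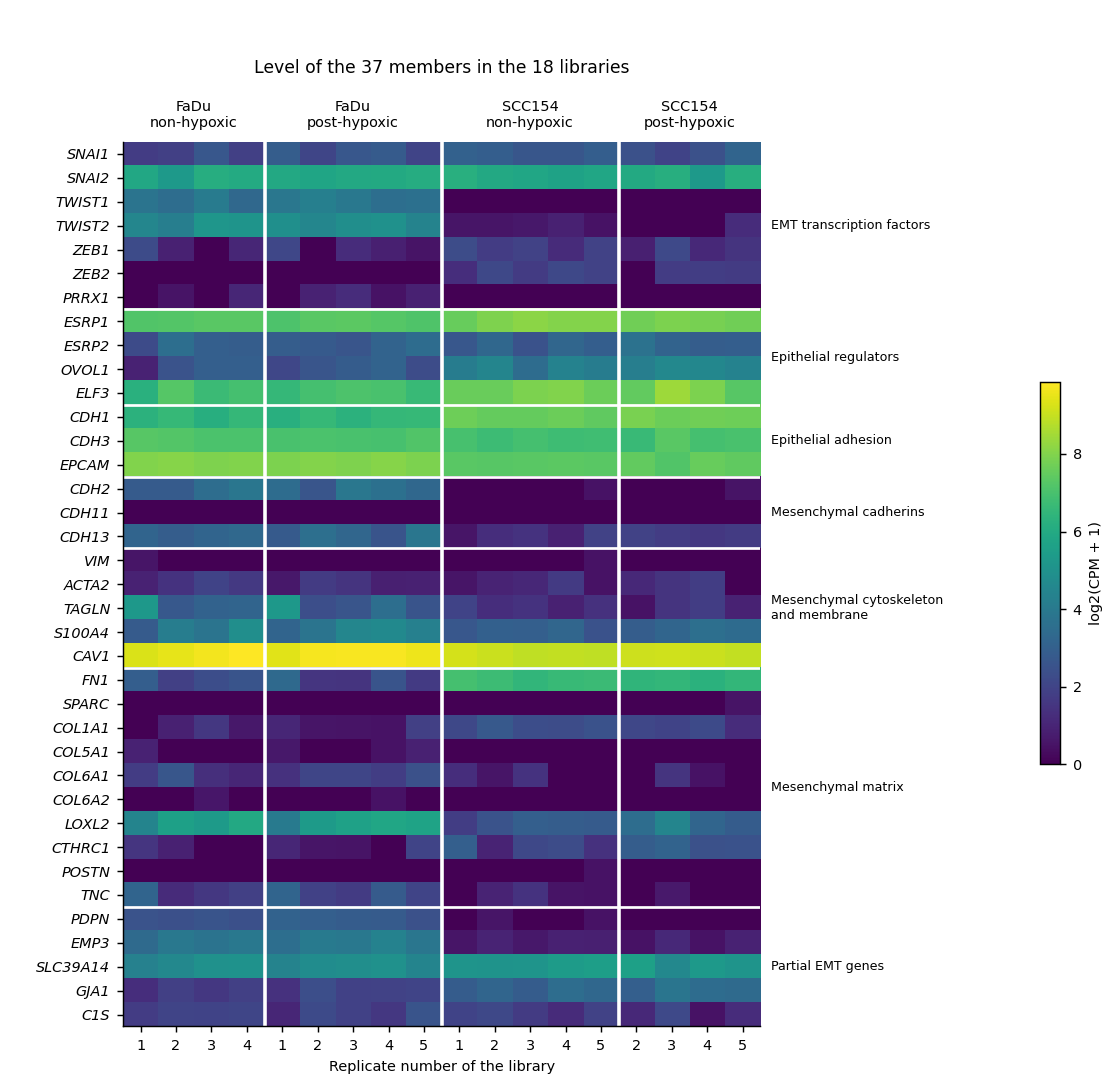
Level of each of the 37 members (rows, ordered by role) in each of the 18 libraries (columns, by group and replicate number), as log2(CPM + 1), where dark purple is no count. Read along a row, the colour changes at the line between FaDu and SCC154 for TWIST1, TWIST2, CDH2, EMP3, PDPN and FN1, while the non-hypoxic and post-hypoxic columns of a line look alike, and VIM, CDH11, SPARC, POSTN and COL6A2 are dark throughout.

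On the epithelial side, 7 members are regulators and adhesion molecules, all 7 tested. SCC154 cells had more CDH1, ESRP1, ELF3 and OVOL1 and less EPCAM in both fractions. CDH3 was lower in SCC154 in the non-hypoxic fractions alone by the test, and ESRP2 was called in neither.

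CDH1 encodes E-cadherin, the adhesion molecule of epithelial junctions (chr16:68737225-68835548 on GRCh38, GENCODE v29, plus strand). Its level was 79.9, 96.6, 71.1 and 93.4 CPM in non-hypoxic FaDu replicates 1 to 4 and 73.2, 94.8, 80.4, 93.3 and 95 CPM in post-hypoxic FaDu replicates 1 to 5. In SCC154 it was 201, 184, 181, 196 and 173 CPM in non-hypoxic replicates 1 to 5 and 229.8, 200.4, 207 and 205 CPM in post-hypoxic replicates 2 to 5. Every SCC154 library lay well above every FaDu library, and the fractions of each line overlapped. The log2 difference, SCC154 minus FaDu, was 1.13 (SE 0.11, adjusted p = 3.36e-09) in the non-hypoxic and 1.27 (SE 0.11, adjusted p = 2.73e-10) in the post-hypoxic fractions by edgeR's quasi-likelihood test, or 2.19-fold and 2.41-fold.

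EPCAM, another surface adhesion molecule of epithelia, went the other way. Its values were 251, 263, 246 and 251 CPM in non-hypoxic and 239.7, 261, 249, 266 and 236 CPM in post-hypoxic FaDu libraries. They were 162, 156, 160.1, 164 and 160.0 CPM in non-hypoxic and 179, 145, 189.6 and 175 CPM in post-hypoxic SCC154 libraries. All 9 FaDu libraries lay above all 9 SCC154 libraries, and the replicates of the non-hypoxic SCC154 group were within a few CPM of each other. On the log2 scale the lines differed by -0.65 (SE 0.085, adjusted p = 4.07e-07) in the non-hypoxic and -0.54 (SE 0.086, adjusted p = 7.32e-06) in the post-hypoxic fractions by edgeR.

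CDH3 encodes P-cadherin, the cadherin of basal epithelial cells, and lies beside CDH1 (chr16:68636189-68722616, plus strand). It stood at 157, 147, 132 and 134 CPM in non-hypoxic and 129, 132, 129, 125 and 143 CPM in post-hypoxic FaDu libraries. In SCC154 it stood at 126, 108, 122, 110.5 and 113 CPM in non-hypoxic and 101, 162, 122 and 129.6 CPM in post-hypoxic libraries. The non-hypoxic groups did not overlap, while post-hypoxic SCC154 libraries spread on both sides of FaDu, with replicate 3 the highest and replicate 2 the lowest of all 18. The log2 difference between the lines was -0.30 (SE 0.11, adjusted p = 0.0204) in the non-hypoxic and -0.038 (SE 0.11, adjusted p = 0.770) in the post-hypoxic fractions by edgeR, and the difference between these differences was 0.26 (SE 0.16, adjusted p = 0.598). Without FaDu non-hypoxic replicate 1, the first of them was -0.25 with an adjusted p of 0.071 and no longer called.

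ESRP1 encodes the splicing factor that holds epithelial isoforms in place. It read 144, 149, 160.5 and 161 CPM in non-hypoxic and 137, 158, 164, 153 and 139.6 CPM in post-hypoxic FaDu libraries. SCC154 libraries read 189, 242, 278, 258 and 259 CPM in the non-hypoxic and 208, 238, 226 and 209 CPM in the post-hypoxic fraction. The lines did not overlap, and non-hypoxic SCC154 replicate 1 was the lowest of its line. SCC154 minus FaDu came to a log2 difference of 0.68 (SE 0.10, adjusted p = 4.71e-06) and 0.55 (SE 0.10, adjusted p = 5.49e-05) in the non-hypoxic and post-hypoxic fractions by edgeR.

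Its relative ESRP2 was low, with group means of 7.0 ± 2.91 and 7.06 ± 1.97 CPM in FaDu (SD, n = 4 and 5) and 6.77 ± 1.85 and 8.31 ± 2.66 CPM in SCC154 (SD, n = 5 and 4). The lines overlapped, with log2 differences of -0.045 (SE 0.31, adjusted p = 0.904) and 0.24 (SE 0.29, adjusted p = 0.480) by edgeR. The last 149 bases of ESRP2 overlap the gene NFATC3 on the other strand in GENCODE v29, and NFATC3 was itself lower in SCC154 (log2 difference -1.62, adjusted p = 1.02e-06 by edgeR). Whether counting used strand is not given in the sources used here, so reads of the pair cannot be told apart.

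ELF3 encodes an epithelial transcription factor of the ETS family. Levels were 74.7, 149.9, 105 and 122 CPM in non-hypoxic and 93.3, 122, 138, 131 and 98.0 CPM in post-hypoxic FaDu libraries. Levels in SCC154 were 195, 191, 237, 255 and 198 CPM in non-hypoxic and 179, 337, 236 and 156 CPM in post-hypoxic libraries. The lines came close to each other without overlap, the lowest SCC154 library being post-hypoxic replicate 5 and the highest FaDu library non-hypoxic replicate 2. In the fit the log2 difference was 0.93 (SE 0.20, adjusted p = 2.34e-04) in the non-hypoxic and 0.96 (SE 0.19, adjusted p = 1.21e-04) in the post-hypoxic fractions by edgeR.

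OVOL1 encodes a zinc finger repressor of mesenchymal genes. FaDu libraries held 0.946, 4.76, 6.96 and 6.98 CPM in the non-hypoxic and 3.25, 5.04, 6.33, 7.81 and 3.94 CPM in the post-hypoxic fraction. SCC154 libraries held 16.7, 21.6, 10.3, 19.4 and 16.5 CPM in the non-hypoxic and 17.5, 23.1, 22.8 and 19.4 CPM in the post-hypoxic fraction. All SCC154 libraries were higher, by 3.49-fold and 3.83-fold in the fit, and FaDu non-hypoxic replicate 1 was the lowest with 2 counts. The log2 difference was 1.80 (SE 0.32, adjusted p = 2.57e-05) in the non-hypoxic and 1.94 (SE 0.29, adjusted p = 3.07e-06) in the post-hypoxic fractions by edgeR.

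**Figure D2:**
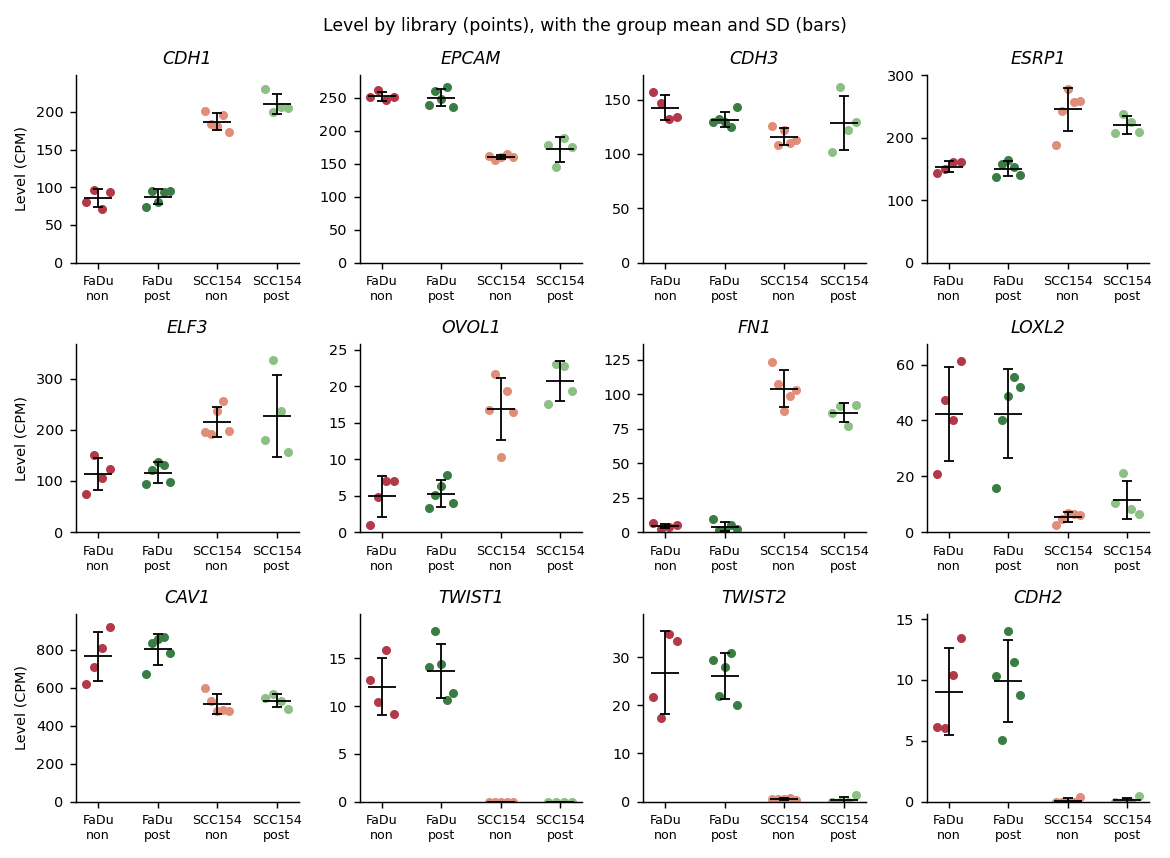
Level in CPM (vertical axes start at 0) of 12 members in each library (points), with the mean and SD of each group (bars), for the non-hypoxic (non) and post-hypoxic (post) fractions of FaDu (4 and 5 libraries) and SCC154 (5 and 4 libraries). CDH1, ESRP1, ELF3, OVOL1 and FN1 sit higher in SCC154, CDH3 is close in both lines, EPCAM, LOXL2, CAV1, TWIST1, TWIST2 and CDH2 sit higher in FaDu, and the fractions of each line overlap for all 12.

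Of the 7 EMT transcription factors, 4 could be tested: SNAI1, SNAI2, TWIST1 and TWIST2. TWIST1 and TWIST2 were far lower in SCC154 in both fractions. These 2 genes passed the filter on low counts through FaDu alone, so their shared direction is not a result in itself. SNAI1 was higher in SCC154 in the non-hypoxic fractions, and SNAI2 did not pass the test. ZEB1, ZEB2 and PRRX1 were too low for the main test.

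SNAI2 (Slug) encodes a zinc finger repressor with E-box binding. Its level was 58.2, 38.6, 69.1 and 63.3 CPM in non-hypoxic and 60.2, 54.5, 60.6, 61.6 and 67.0 CPM in post-hypoxic FaDu libraries. SCC154 had 72.7, 61.0, 55.5, 50.5 and 56.1 CPM in non-hypoxic and 61.9, 71.8, 39.6 and 71.3 CPM in post-hypoxic libraries. All 4 groups overlapped. The log2 difference between the lines was 0.051 (SE 0.17, adjusted p = 0.804) and 0.0017 (SE 0.17, adjusted p = 0.994) by edgeR, and the 95% intervals ran from -18.9% to 32.2% and from -21.4% to 27.6% relative to the FaDu level.

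SNAI1 (Snail), from the same family, was low. Group means were 3.28 ± 1.46 and 4.87 ± 1.64 CPM in non-hypoxic and post-hypoxic FaDu (SD, n = 4 and 5), and 6.20 ± 0.993 and 5.01 ± 2.19 CPM in SCC154 (SD, n = 5 and 4). The lines overlapped. On the log2 scale the lines differed by 0.92 (SE 0.34, adjusted p = 0.0204) in the non-hypoxic and 0.070 (SE 0.32, adjusted p = 0.854) in the post-hypoxic fractions by edgeR. The difference between these was -0.85 (SE 0.47, adjusted p = 0.563), so a difference between fractions was not shown. The first call was lost when FaDu non-hypoxic replicate 1, 2 or 4 was left out, with adjusted p values of 0.0643, 0.0617 and 0.0528 by edgeR.

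TWIST1 and TWIST2 encode closely related basic helix-loop-helix factors of mesenchymal tissue. TWIST1, described by library because of its values, stood at 12.8, 10.4, 15.9 and 9.13 CPM in non-hypoxic and 14.1, 17.9, 14.5, 10.7 and 11.4 CPM in post-hypoxic FaDu libraries. All 9 SCC154 libraries had no count of it. FaDu was at least 42.6-fold higher in the non-hypoxic and at least 39.9-fold higher in the post-hypoxic fraction, taking 3 counts over the SCC154 group as the limit that a count of 0 allows. The adjusted p by edgeR was 7.80e-09 and 7.42e-09.

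For TWIST2 the FaDu values were 21.8, 17.3, 34.8 and 33.3 CPM in the non-hypoxic and 29.3, 22.0, 28.0, 30.8 and 20.1 CPM in the post-hypoxic fraction. The SCC154 values were 0.491, 0.481, 0.572, 0.863 and 0.412 CPM in the non-hypoxic fraction, each from 1 or 2 counts. Among post-hypoxic SCC154 libraries, only replicate 5 had any, with 3 counts or 1.35 CPM. The gap between the lines exceeded the spread of either many times. SCC154 minus FaDu came to a log2 difference of -5.42 (SE 0.41, adjusted p = 4.56e-11) in the non-hypoxic fractions by edgeR. In the post-hypoxic fractions the counts, 285 against 3, gave a ratio of 76.3 with a 95% counting interval of 25.9 to 372, and all 3 lay in that 1 library.

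ZEB1 and ZEB2 encode zinc finger and homeobox repressors of CDH1. ZEB1 was at 3.78, 0.866, 0 and 1.07 CPM in non-hypoxic and 3.25, 0, 1.36, 0.822 and 0.438 CPM in post-hypoxic FaDu libraries, at most 8 counts. In SCC154 it was at 3.93, 2.40, 2.86, 1.29 and 2.89 CPM in non-hypoxic and 0.815, 3.56, 1.22 and 1.81 CPM in post-hypoxic libraries, again at most 8 counts. The lines overlapped at this depth, and the fit without a filter on low counts gave log2 differences of 0.84 (SE 0.57, adjusted p = 0.245) and 0.62 (SE 0.63, adjusted p = 0.430) by edgeR.

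ZEB2 had no count in any of the 9 FaDu libraries. SCC154 libraries held 1.47, 3.36, 2.29, 3.45 and 2.89 CPM in the non-hypoxic and 0, 2.37, 2.45 and 2.26 CPM in the post-hypoxic fraction. SCC154 was thus at least 7.56-fold higher in the non-hypoxic and at least 6.22-fold higher in the post-hypoxic fraction, with 3 counts over the FaDu group as the limit. PRRX1, a homeobox factor, went the other way at still lower counts, with 8 counts over the post-hypoxic FaDu libraries and 0 in all 9 SCC154 libraries. Of the ZEB and TWIST genes, TWIST1 and TWIST2 thus had more counts in FaDu and ZEB2 in SCC154, while ZEB1 was not called in either fraction by the fit without a filter. In the fit without a filter, which called 43.4% of 22591 genes between the non-hypoxic and 44.7% between the post-hypoxic fractions, ZEB2 passed in both (adjusted p = 4.64e-06 and 5.78e-05 by edgeR) and PRRX1 in the post-hypoxic fractions (adjusted p = 0.0138).

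Of the mesenchymal cadherins, CDH2 and CDH13 were tested and were lower in SCC154. Both passed the filter on low counts through FaDu alone, so their shared direction is not a result in itself. CDH2 encodes N-cadherin, which replaces E-cadherin in the classical cadherin switch. FaDu libraries held 6.15, 6.06, 10.4 and 13.4 CPM in the non-hypoxic and 10.3, 5.04, 14.0, 11.5 and 8.75 CPM in the post-hypoxic fraction. In SCC154, replicate 5 of each fraction had 1 count, and the other 7 libraries had none. The counts, 73 against 1 and 109 against 1, gave ratios of 93.3 (95% counting interval 16.2 to 3736) and 87.6 (15.4 to 3491) in favour of FaDu. The adjusted p by edgeR was 2.88e-08 in the non-hypoxic and 2.70e-08 in the post-hypoxic fractions. FaDu, the line with CDH2, thus still had CDH1 in every library, at lower levels than SCC154. CDH13 encodes a cadherin anchored to the membrane by a lipid. Its group means were 7.90 ± 1.08 and 8.81 ± 3.56 CPM in FaDu (SD, n = 4 and 5) and 1.48 ± 0.921 and 2.38 ± 0.344 CPM in SCC154 (SD, n = 5 and 4). The lines did not overlap, with log2 differences of -2.34 (SE 0.39, adjusted p = 1.07e-05) and -1.86 (SE 0.35, adjusted p = 5.88e-05) by edgeR. CDH11, a cadherin of mesenchymal and bone-forming cells, had 0 counts in all 18 libraries, which allows up to 0.156 CPM over the FaDu and 0.155 CPM over the SCC154 libraries, a limit that covers counting error only.

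VIM, the intermediate filament gene most used as a mesenchymal marker, was near the limit of detection in both lines. It had 1 count in FaDu non-hypoxic replicate 1 (0.473 CPM), 1 count in SCC154 non-hypoxic replicate 5 (0.412 CPM) and 0 in the other 16 libraries. No difference in VIM was detectable at this depth. Of the other cytoskeleton and membrane members, CAV1, S100A4 and TAGLN could be tested, and all 3 were lower in SCC154 in both fractions. Over all genes, 34.5% and 34.9% were called lower in the non-hypoxic and post-hypoxic fractions. TAGLN passed the filter on low counts through FaDu alone, so its direction is close to built in. ACTA2, smooth muscle actin, was too low to test, with group means of 1.03 to 1.95 CPM.

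CAV1 encodes caveolin-1, the coat protein of membrane caveolae. It read 619, 713, 809.9 and 922 CPM in non-hypoxic and 671, 839, 856, 867 and 782 CPM in post-hypoxic FaDu libraries. SCC154 libraries read 599, 531, 477, 486 and 478 CPM in the non-hypoxic and 547, 568, 529 and 488 CPM in the post-hypoxic fraction. The lines did not overlap, the lowest FaDu library being non-hypoxic replicate 1. In the fit the log2 difference was -0.57 (SE 0.11, adjusted p = 5.45e-05) and -0.59 (SE 0.11, adjusted p = 4.26e-05) in the non-hypoxic and post-hypoxic fractions by edgeR.

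S100A4 encodes a calcium-binding protein also called fibroblast-specific protein. In FaDu it stood at 6.15, 16.9, 12.9 and 28.4 CPM in non-hypoxic and 8.14, 12.8, 22.1, 24.6 and 18.4 CPM in post-hypoxic libraries. In SCC154 it stood at 5.40, 7.21, 6.86, 8.63 and 4.54 CPM in non-hypoxic and 6.52, 8.30, 11 and 9.93 CPM in post-hypoxic libraries. The lines overlapped through FaDu replicate 1 of each fraction, which lay within the SCC154 range. The log2 difference was -1.28 (SE 0.36, adjusted p = 0.00286) in the non-hypoxic and -0.96 (SE 0.34, adjusted p = 0.0152) in the post-hypoxic fractions by edgeR. The second call was lost without SCC154 post-hypoxic replicate 2 (adjusted p = 0.0563) or FaDu post-hypoxic replicate 4 (adjusted p = 0.0509).

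TAGLN encodes transgelin, an actin-binding protein of smooth muscle, and is given by library because 2 libraries stood apart. FaDu values were 36.9, 5.63, 7.45 and 8.05 CPM in the non-hypoxic and 37.4, 4.12, 4.97, 10.7 and 4.81 CPM in the post-hypoxic fraction. SCC154 values were 2.95, 1.44, 1.72, 0.863 and 1.65 CPM in the non-hypoxic and 0.407, 1.78, 2.45 and 0.903 CPM in the post-hypoxic fraction. Replicate 1 of each FaDu fraction was several times above all other libraries, and the remaining FaDu libraries still lay above all of SCC154. On the log2 scale the lines differed by -3.05 (SE 0.74, adjusted p = 8.69e-04) and -3.07 (SE 0.82, adjusted p = 0.00198) in the non-hypoxic and post-hypoxic fractions by edgeR. Without both FaDu libraries numbered 1 it was -2.01 (adjusted p = 0.000355) and -2.14 (adjusted p = 0.000259). The last 446 bases of TAGLN overlap PCSK7 on the other strand, and PCSK7 was also highest in FaDu replicate 1 of both fractions, at 108 CPM in each, against 54.1 to 88.4 CPM in the other 7 FaDu libraries. PCSK7's part in the TAGLN values was not tested.

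Of the 10 matrix genes, FN1, LOXL2 and CTHRC1 were tested. FN1 and CTHRC1 were called higher and LOXL2 lower in SCC154 in both fractions, where 68.9% and 69.7% of all genes were called. CTHRC1 passed the filter on low counts through SCC154 alone, so its direction is close to built in. FN1 encodes fibronectin, the glycoprotein that links cells to the matrix, and had the largest difference of the tested members higher in SCC154. Its level was 6.62, 2.60, 3.97 and 4.83 CPM in non-hypoxic and 9.22, 1.83, 1.81, 4.93 and 2.19 CPM in post-hypoxic FaDu libraries. Its level in SCC154 was 124, 107, 87.5, 98.4 and 103 CPM in non-hypoxic and 86.4, 91.3, 76.7 and 92.1 CPM in post-hypoxic libraries. Every SCC154 library was several times above every FaDu library, and within each line the fractions overlapped. SCC154 minus FaDu came to a log2 difference of 4.52 (SE 0.27, adjusted p = 7.82e-13) in the non-hypoxic and 4.47 (SE 0.26, adjusted p = 4.11e-13) in the post-hypoxic fractions by edgeR, or 23-fold and 22.1-fold.

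LOXL2 encodes a lysyl oxidase that cross-links collagen. FaDu libraries stood at 20.8, 47.2, 40.2 and 61.2 CPM in the non-hypoxic and 15.7, 40.3, 48.8, 55.5 and 52.1 CPM in the post-hypoxic fraction. SCC154 libraries stood at 2.45, 4.81, 6.86, 6.47 and 6.19 CPM in the non-hypoxic and 10.6, 21.3, 8.16 and 6.32 CPM in the post-hypoxic fraction. The lines touched only through SCC154 post-hypoxic replicate 3, which was above FaDu replicate 1 of both fractions. In the fit the log2 difference was -2.96 (SE 0.38, adjusted p = 3.44e-07) in the non-hypoxic and -1.94 (SE 0.35, adjusted p = 3.67e-05) in the post-hypoxic fractions by edgeR.

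CTHRC1 encodes a secreted protein of collagen-producing cells. Group means were 0.690 ± 0.900 and 1.01 ± 1.21 CPM in FaDu (SD, n = 4 and 5) and 3.36 ± 2.31 and 5.81 ± 1.59 CPM in SCC154 (SD, n = 5 and 4), at most 16 counts in a library. The lines overlapped in the non-hypoxic fractions and did not in the post-hypoxic fractions, and the log2 difference was 2.11 (SE 0.75, adjusted p = 0.0158) and 2.44 (SE 0.61, adjusted p = 0.00105) by edgeR. Single libraries moved it: without FaDu non-hypoxic replicate 1 the first was 3.15, and without FaDu post-hypoxic replicate 5 the second was 3.48. Without SCC154 non-hypoxic replicate 1 or FaDu non-hypoxic replicate 3 the first was no longer called (adjusted p = 0.0595 and 0.0518).

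The 7 other matrix genes were too low for the main test. COL1A1, which encodes a chain of type I collagen, had group means of 0.848 ± 0.840 and 1.01 ± 0.948 CPM in FaDu and 4.33 ± 0.896 and 2.81 ± 1.01 CPM in SCC154. TNC (tenascin C) had 3.50 ± 3.08 and 4.47 ± 2.56 CPM in FaDu and 0.704 ± 0.660 and 0.148 ± 0.297 CPM in SCC154, each with its SD over 4 and 5, or 5 and 4, libraries. COL6A1, a chain of type VI collagen, had 2.53 ± 1.86 and 2.97 ± 1.02 CPM in FaDu and 0.734 ± 0.814 and 0.547 ± 0.844 CPM in SCC154. In the fit without a filter, COL1A1 was called higher in SCC154 in both fractions (log2 difference 2.28 (SE 0.56, adjusted p = 2.71e-04) and 1.44 (SE 0.56, adjusted p = 0.0249) by edgeR). TNC (log2 difference -2.31 in the non-hypoxic fractions, adjusted p = 0.000654) and COL6A1 (-1.89, adjusted p = 0.0101) were called lower there, again in both fractions. TNC had 1 count over the 4 post-hypoxic SCC154 libraries against 48 over the 5 FaDu libraries, a ratio of 38.6 with a 95% counting interval of 6.60 to 1555. COL5A1 had counts in 4 libraries, all FaDu, and COL6A2 in 2, both FaDu. SPARC and POSTN had 1 count each, both in SCC154 libraries numbered 5.

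**Figure D3:**
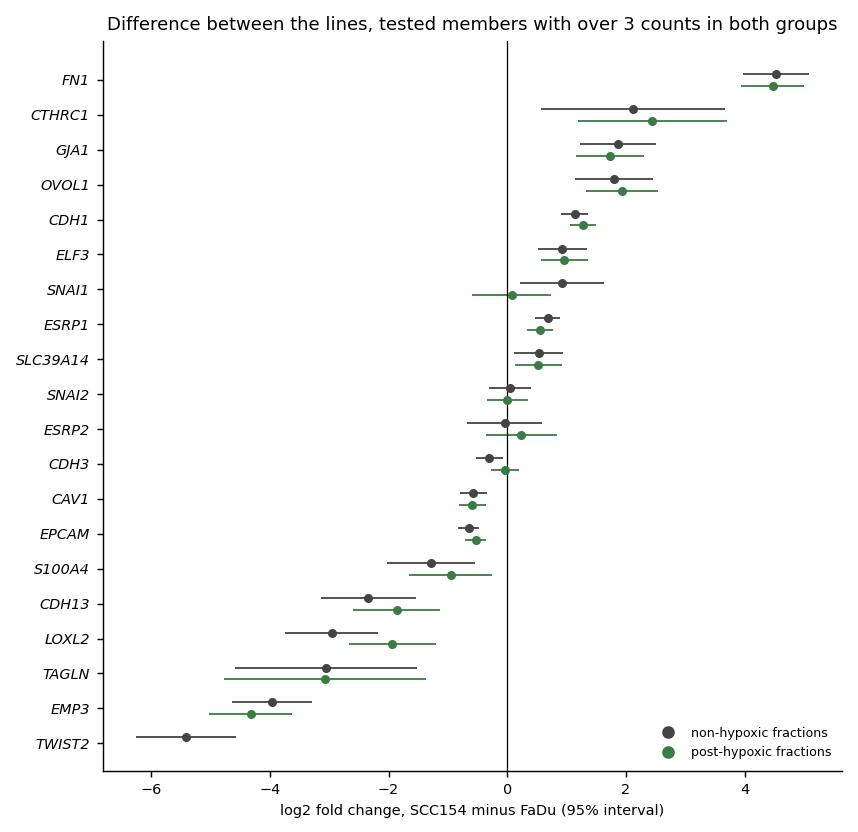
Log2 fold change, SCC154 minus FaDu, of the 20 tested members with over 3 counts in both groups compared, with its 95% interval, in the non-hypoxic (grey) and post-hypoxic (green) fractions. Points right of 0 are higher in SCC154, from 4.52 for FN1, and points left of 0 are higher in FaDu, to -5.42 for TWIST2. TWIST1, CDH2 and PDPN, with 0 to 2 counts over an SCC154 group, are not drawn, nor is TWIST2 in the post-hypoxic fractions.

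Of the 5 members taken as partial EMT genes, SLC39A14 and GJA1 were called higher in SCC154 in both fractions, and PDPN and EMP3 lower. Over all genes, 68.9% and 69.7% were called in the non-hypoxic and post-hypoxic fractions. PDPN and EMP3 passed the filter on low counts through FaDu alone, and GJA1 through SCC154 alone. Their directions are thus close to built in, and the division is not a result in itself. C1S, a complement protease, was too low to test, with group means of 1.64 to 2.90 CPM. SLC39A14 encodes a zinc and manganese transporter. Its values were 18.9, 23.4, 30.3 and 31.1 CPM in non-hypoxic and 20.1, 27.0, 28.0, 30.8 and 20.6 CPM in post-hypoxic FaDu libraries. SCC154 values were 33.4, 32.7, 33.2, 41.0 and 45.0 CPM in non-hypoxic and 48.1, 23.1, 39.6 and 33.4 CPM in post-hypoxic libraries. The non-hypoxic groups did not overlap, while post-hypoxic SCC154 replicate 3 lay within the FaDu range. The log2 difference was 0.53 (SE 0.20, adjusted p = 0.0216) and 0.52 (SE 0.19, adjusted p = 0.0201) in the non-hypoxic and post-hypoxic fractions by edgeR. Both calls were close to the threshold: the first was lost without FaDu non-hypoxic replicate 1 or 2 or SCC154 non-hypoxic replicate 5, and the second without FaDu post-hypoxic replicate 1 or 5 or SCC154 post-hypoxic replicate 2, with adjusted p values of 0.0501 to 0.122.

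GJA1 encodes the gap junction protein connexin 43. Group means were 2.17 ± 0.590 and 2.88 ± 0.890 CPM in FaDu (SD, n = 4 and 5) and 7.97 ± 1.70 and 9.91 ± 2.52 CPM in SCC154 (SD, n = 5 and 4). The lines did not overlap, with log2 differences of 1.86 (SE 0.31, adjusted p = 1.41e-05) and 1.73 (SE 0.28, adjusted p = 7.05e-06) by edgeR. PDPN encodes podoplanin, a membrane glycoprotein of the invasive edge of squamous carcinomas. FaDu libraries held 4.29 to 7.59 CPM, and SCC154 had 1 count in each of 2 non-hypoxic libraries and none in the other 7. FaDu was higher by a ratio of 24.3 (95% counting interval 6.28 to 208) in the non-hypoxic and at least 18.2-fold in the post-hypoxic fraction. EMP3, a membrane protein, had group means of 12.7 ± 2.33 and 14.7 ± 3.22 CPM in FaDu (SD, n = 4 and 5) and 0.742 ± 0.201 and 0.726 ± 0.385 CPM in SCC154 (SD, n = 5 and 4). The lines did not overlap, with log2 differences of -3.97 (SE 0.33, adjusted p = 2.47e-10) and -4.33 (SE 0.34, adjusted p = 9.09e-11) by edgeR.

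Between post-hypoxic and non-hypoxic cells the comparison asked whether members still differ after cells have been returned to normoxia. In SCC154 no member passed, against 0.757% of all genes (0.334% higher and 0.423% lower in post-hypoxic cells). TWIST1, without a count in SCC154, could not have been called there. With the SCC154 libraries alone, 15 members passed the filter on low counts, and 0 of them and 22 of 11246 genes were called. Leaving out single libraries moved the count over all genes from 93 to between 20 (without SCC154 non-hypoxic replicate 2 or post-hypoxic replicate 4) and 190 (without SCC154 post-hypoxic replicate 5), and 0 members were called in each of these 18 fits. By edgeR, 1 of the 23 members had an unadjusted p under 0.05, as had 1930 of all 12291 genes, and DESeq2 and limma voom called 0 members as well. That member was LOXL2, with 2.45, 4.81, 6.86, 6.47 and 6.19 CPM in non-hypoxic against 10.6, 21.3, 8.16 and 6.32 CPM in post-hypoxic SCC154 libraries. Post-hypoxic replicates 2 to 4 lay above the whole non-hypoxic group and replicate 5 within it. Post-hypoxic minus non-hypoxic, the log2 difference was 1.05 (SE 0.45, adjusted p = 0.262), the lowest adjusted p of any tested member in this comparison by edgeR, and it was 0.64 without post-hypoxic replicate 3. In the fit without a filter on low counts, which called 1.29% of 22591 genes, LOXL2 passed with 1.05 (adjusted p = 0.0457 by edgeR).

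The intervals show what the SCC154 libraries could resolve. For EPCAM, the 95% interval of the change from non-hypoxic to post-hypoxic cells ran from -5.07% to 21.6%, for CDH1 from -2.81% to 30.6% and for CAV1 from -11.2% to 21.0%. ESRP1 had an interval from -22.5% to 3.92%, CDH3 from -5.78% to 30.0% and FN1 from -36.0% to 8.04%. The intervals were wider for S100A4, from -21.0% to 139%, and for TAGLN, from -84.2% to 313%.

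In FaDu, 0 of the 23 members passed, and DESeq2 and limma voom called 0. By edgeR, 0 members had an unadjusted p under 0.05, as had 298 of all 12291 genes. The median log2 difference over the members was 0.069, against -0.0035 over all genes. The 95% interval of the change ran from -12.3% to 11.8% for EPCAM, from -12.4% to 20.2% for CDH1, from -15.6% to 14.0% for ESRP1 and from -10.1% to 22.4% for CAV1. TWIST1, present only in FaDu, had an interval from -20.4% to 61.0%, TWIST2 from -29.2% to 35.2% and CDH2 from -27.8% to 72.5%. Same-numbered FaDu libraries tended to deviate together, so the numbers 1 to 4 were also read as pairs, though whether they pair these libraries is not known. PDPN, GJA1 and EMP3 were higher in post-hypoxic cells in 4 of 4 pairs, and CDH3 was lower in 4 of 4. These are 17.4% of the 23 members, near the 16.1% of all genes that moved one way in every pair. With the pair as a block, 7 of 12291 genes and 0 members passed in FaDu. The interaction, which asks whether the difference between fractions differs between the lines, called 0 members and 0.0163% of all genes by edgeR. At an unadjusted p under 0.05 it held 0 members and 1202 of all genes, and DESeq2 and limma voom called 0 members.

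**Figure D4:**
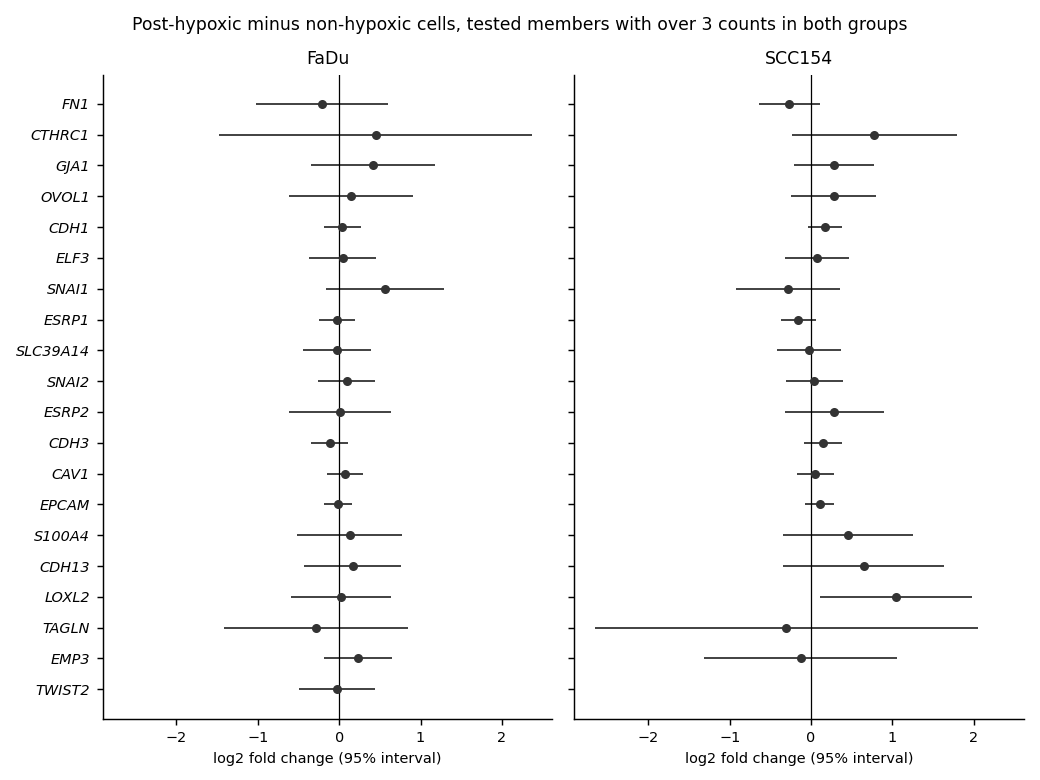
Log2 fold change, post-hypoxic minus non-hypoxic, with its 95% interval, for tested members, each with over 3 counts in both groups of the line shown (19 in SCC154). TWIST1, CDH2 and PDPN are left out of both panels, although they have over 3 counts in both FaDu groups. All intervals include 0 except that of LOXL2 in SCC154, which is centred on 1.05 with an adjusted p of 0.262 by edgeR.

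Among the FaDu libraries, those numbered 1 stood apart in a similar way in both fractions. For 10 of the 23 members (43.5%) both libraries numbered 1 lay outside the range of the other 7 FaDu libraries on the same side, as for 21.4% of all genes. TAGLN (36.9 and 37.4 CPM, against 4.12 to 10.7 in the other 7) and FN1 (6.62 and 9.22 CPM, against 1.81 to 4.93) were above. OVOL1, ELF3, S100A4, CAV1, LOXL2, EMP3, SLC39A14 and GJA1 were below. LOXL2 had 20.8 and 15.7 CPM in them against 40.2 to 61.2 CPM in the others, and S100A4 6.15 and 8.14 against 12.8 to 28.4 CPM. TNC, which was not tested, was also highest there, with 8.04 and 8.14 CPM. The labels give no batch or date for the number. Leaving out both libraries left the calls between the lines at 18 of 23 members in the non-hypoxic and 19 of 23 in the post-hypoxic fractions. Of all 12477 genes tested in that fit, 8361 and 8598 were called. SNAI1, CDH3 and SLC39A14 were the member calls lost, all in the non-hypoxic fractions.

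**Figure D5:**
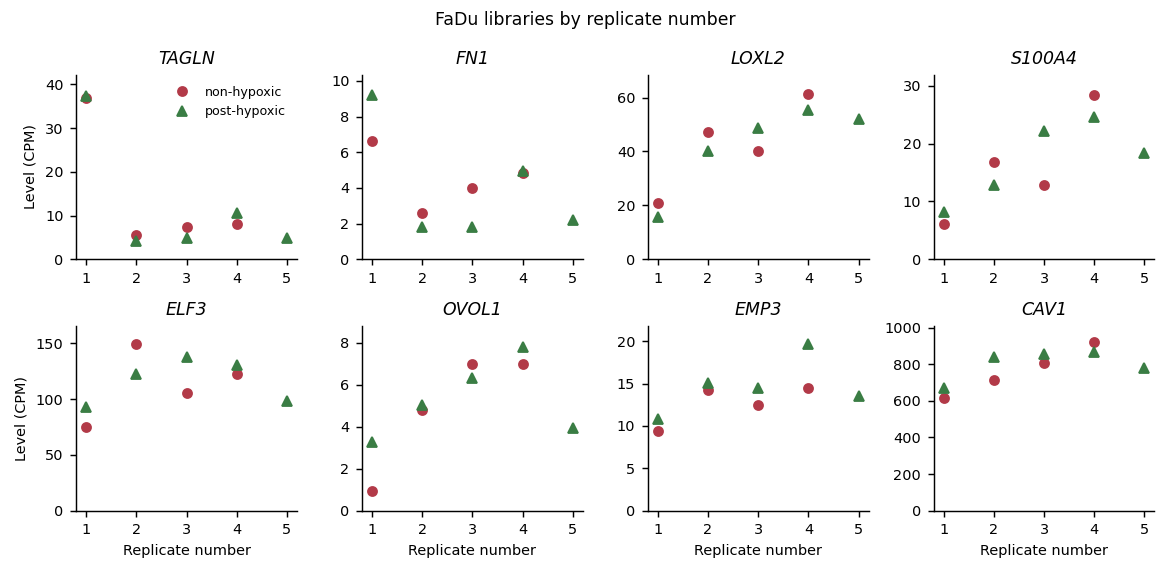
Level in CPM (vertical axes start at 0) of 8 members in the FaDu libraries by replicate number, for the non-hypoxic (circles, 1 to 4) and post-hypoxic (triangles, 1 to 5) fractions. In replicate 1 of both fractions TAGLN and FN1 are above, and LOXL2, S100A4, ELF3, OVOL1, EMP3 and CAV1 below, all other FaDu libraries.

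Other genes of the same programmes were taken from 4 lists, and those named, unless said otherwise, averaged at least 10 CPM over the 18 libraries. Of 89 other partial EMT genes, 80 were tested, and 52 were higher and 16 lower in SCC154 in the non-hypoxic fractions (49 and 16 in the post-hypoxic fractions). Over all genes the shares were 34.5% each way, and 34.8% and 34.9% in the post-hypoxic fractions. IGFBP3, a binding protein of insulin-like growth factors, stood at 13.1 ± 5.18 CPM in FaDu and 709 ± 69.6 CPM in SCC154 non-hypoxic cells (SD, n = 4 and 5), a log2 difference of 5.73 (SE 0.26, adjusted p = 6.56e-15) by edgeR. TIMP3, a metalloprotease inhibitor, was higher by 5.66 on the log2 scale and INHBA, a subunit of activin A, by 4.80. DKK3, a secreted protein of the dickkopf family, was lower, with 2 counts over the non-hypoxic SCC154 libraries against 179 in FaDu, a ratio of 114 (95% counting interval 31.2 to 952). In the post-hypoxic fractions it had 11 counts in SCC154 and a log2 difference of -4.03 (SE 0.34, adjusted p = 3.80e-10) by edgeR, or 16.3-fold. ITGB6 (log2 difference -1.76) and SERPINH1 (-1.49) were lower as well. None of the 80 passed the edgeR test between the fractions of either line, against 0.757% of all genes in SCC154 and 0% in FaDu.

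Of 51 other mesenchymal genes, 28 were tested, with 17 higher and 7 lower in SCC154 in the non-hypoxic and 16 and 9 in the post-hypoxic fractions, beside 34.5% of all genes each way and 34.8% and 34.9%. CCN2 (log2 difference 4.82), a matricellular protein, EFEMP1 (4.69), a fibulin, and COL4A1 (3.54), a basement membrane collagen, were higher. FBN2, a fibrillin, had no count in SCC154 and was at least 78.8-fold and 84.9-fold higher in FaDu in the 2 fractions. DPYSL3 was lower in SCC154, with a log2 difference of -4.50. CALD1, the actin-binding protein caldesmon, was the 1 gene of this list called between the fractions: 48.3 ± 5.76 CPM in non-hypoxic and 12.1 ± 2.69 CPM in post-hypoxic SCC154 cells (SD, n = 5 and 4), a log2 difference of -1.98 (SE 0.14, adjusted p = 1.16e-08) by edgeR. In FaDu it stood at 193 ± 13.9 and 201 ± 9.50 CPM (SD, n = 4 and 5), and the interaction was -2.03 (SE 0.18, adjusted p = 5.48e-07). CALD1 passed under every one of 27 other settings for the fractions and 26 for the interaction.

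Of 17 other EMT transcription factors, 9 were tested, with 3 higher in SCC154 (FOXC1, TCF4 and SOX4) and 5 lower in both fractions, beside 68.9% and 69.7% of all genes called. Those lower included FOSL1 (log2 difference -2.59), a subunit of AP-1, HMGA2 (-2.07) and SOX9 (-1.93). Within SCC154, FOXC1 was lower in post-hypoxic cells (100.4 ± 9.45 against 148 ± 17.8 CPM, log2 difference -0.56 (SE 0.13, adjusted p = 0.0416) by edgeR). RUNX2 was higher there (5.54 ± 0.691 against 2.16 ± 0.229 CPM, log2 difference 1.34 (SE 0.28, adjusted p = 0.0321) by edgeR), and is named after its values were seen, since its level is under the 10 CPM of the naming rule. Of 31 other epithelial genes, 25 were tested, with 10 higher and 4 lower in SCC154 in the non-hypoxic and 14 and 4 in the post-hypoxic fractions, 14 and 18 of 25 called beside 68.9% and 69.7% of all genes. EHF, an ETS factor related to ELF3, stood at 2.90 ± 0.776 CPM in FaDu and 519 ± 69.1 CPM in SCC154 non-hypoxic cells (SD, n = 4 and 5), a log2 difference of 7.46 (SE 0.33, adjusted p = 4.66e-15) by edgeR. PRSS8 (1.97), the protease prostasin, and KLF5 (1.44) were higher too, and MARVELD2 (-1.45), KLF4 (-0.88) and MARVELD3 (-0.58) lower. ST14, the protease matriptase, was the 1 gene of the list called between fractions, higher in post-hypoxic SCC154 cells by 0.49 (SE 0.10, adjusted p = 0.0289) on the log2 scale by edgeR. These last 3 calls were not firm: of 27 other settings, FOXC1 missed the threshold in 13 (adjusted p up to 0.172), RUNX2 in 8 (up to 0.144) and ST14 in 6 (up to 0.0823). Each of the 3 missed it without SCC154 post-hypoxic replicate 2, among others.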

How the data were processed

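RNA was sequenced by a 3′ tag method from 18 libraries in 4 groups. The authors deposited 1 table of raw counts per gene symbol. Per the submitters' processing notes it involved the build hg38 and the tools HISAT2 2.2.1, featureCounts 1.5.1, UMI-tools 1.1.5, Trimmomatic 0.39 and FastQC 0.11.9. Their order, settings, annotation and use of strand were not given in the sources used here. Members and lists were chosen with earlier results of these data known. Of 41120 symbols, 22591 had a count and 12291 passed edgeR's filterByExpr. Counts were scaled by TMM and fitted with edgeR 4.0.16 (R 4.3.3, quasi-likelihood, 4 group means, 14 residual degrees of freedom, common biological coefficient of variation 0.148). The 5 contrasts were tested, with Benjamini-Hochberg adjustment and a threshold of 0.05. limma 3.58.1 (voom), DESeq2 1.42.0, other scalings, no filter, replicate blocks and single libraries left out were alternatives. Counting intervals and floors (3 counts) cover counting error only.

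Members given by library were 8 chosen whatever their result, and the 6 largest called differences between the non-hypoxic fractions each way among those averaging 10 CPM or more; others given by library were chosen after their values were seen. Totals were 1654719 to 2503573 counts. All 32 replicate pairs differed by more than sampling noise (chi-square per degree of freedom 1.77 to 10.7, genes of at least 10 counts). FaDu libraries of the same number tended to deviate together (correlation 0.178 to 0.447 in 4 pairs, against -0.433 to 0.242 for different numbers). Yet non-hypoxic replicate 2 correlated better with post-hypoxic replicate 5 (0.23) than with 2 (0.178). Non-hypoxic replicate 3 correlated better with post-hypoxic replicate 4 (0.2159) than with 3 (0.2085). By the threshold of 0.1 the numbers were read as pairs beside the main test, which had no block. Whether they pair these libraries is not known. The fit was tested on simulated data.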

Additional observations from a re-analysis of the deposited data

Results flagged for a closer look

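In 6 of the 89 groups of 4 or 5 libraries in which a tested member varied, 1 library was set apart from the others by Dixon's test, which chance does in about 1 in 20 groups. In 3 of the 6 the other libraries were all at 0, where a single library with any count is always set apart, so the number of groups cannot be read against that rate. TAGLN was 36.9 CPM in FaDu non-hypoxic replicate 1, against 5.63 to 8.05 CPM in the other 3, and 37.4 CPM in FaDu post-hypoxic replicate 1, against 4.12 to 10.7 CPM in the other 4. SNAI1 was 5.47 CPM in FaDu non-hypoxic replicate 3, against 2.36 to 2.68 CPM in the rest of its group. TWIST2 was 1.35 CPM in SCC154 post-hypoxic replicate 5 and 0 in the other 3 libraries. CDH2 was 0.412 CPM in SCC154 non-hypoxic replicate 5 and 0.451 CPM in SCC154 post-hypoxic replicate 5, 1 count each, and 0 in the rest.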

How the results depend on the processing

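Between the lines, member calls numbered 18 to 22 in the non-hypoxic and 18 to 20 in the post-hypoxic fractions when single libraries were left out. These fits tested 23 or 24 members, and where 24 were tested the added member, TNC, was among the calls. Over all genes they called 8059 to 8662 and 8228 to 8760, of 12212 to 12527 tested. Under both other scalings, DESeq2 and limma voom, member calls numbered 21 and 19. No called direction reversed. Between the fractions of SCC154, 1 member was called without the filter on low counts and 2 with a replicate block within each line; 0 were called when single libraries were left out. The block called LOXL2 (log2 difference 0.83, adjusted p = 0.0486) and ESRP1 (-0.24, adjusted p = 0.0444) by edgeR, and 1052 of 12291 genes. SCC154 libraries of the same number correlated at 0.0292 to 0.398, and 1 of the 4 pairs was under the 0.1 set for taking numbers as pairs. SCC154 non-hypoxic replicate 2 correlated best with post-hypoxic replicate 3, so whether the numbers pair these libraries is not known. A replicate block shared across the lines called 0 members between fractions and 21 and 19 between lines. Over all genes, SCC154 fractions differed in 93 genes, in 203 by DESeq2, 131 by limma voom, 291 without a filter, 243 with the shared block and 22 with only the groups compared. Without single SCC154 libraries the count was 57, 20, 21, 51 and 24 for non-hypoxic replicates 1 to 5, and 23, 163, 20 and 190 for post-hypoxic replicates 2 to 5; it was 59 without FaDu non-hypoxic and 55 without FaDu post-hypoxic replicate 3. Between the FaDu fractions 0 genes were called, 3 by DESeq2, 0 by limma voom, 10 without a filter, 0 with the shared block and 0 with only the groups compared. The interaction called 2 genes, 19 by DESeq2, 3 by limma voom, 51 without a filter, 5 with the shared block and 224 with the block within each line. The setting without both FaDu libraries numbered 1 was chosen after seeing the data. The cause of these changes was not tested. At this depth 14 of the 37 members were too low to test.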
